A study of Mus musculus with 6 samples.

Results

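Splicing factor genes were read here as the 52 gene symbols, of 33924 in the table, that begin with Srsf or Sfrs and a number, with Hnrnp or Hnrp, with Sf3a or Sf3b and a number, or that name an Snrp gene from Snrpa to Snrpg. They fall into 4 classes: 8 subunits of SF3a and SF3b, 11 Sm core and U1 or U2 snRNP proteins, 21 hnRNP proteins and 12 SR proteins. E14 mouse embryonic stem cells, an established line, gave 3 RNA libraries labelled Rif1-KO and 3 labelled control. The labels call the control cells WT, and for both groups they give 2i medium, which holds the cells in naive pluripotency, 4-hydroxytamoxifen at 0.1 µM for 2 days and 1 further day without it. Yet the column names of the deposited tables carry TAM for Rif1-KO and 2i for control, so a difference in drug or medium cannot be told apart from the loss of Rif1. How Rif1 was disrupted, and whether the knockout line is 1 clone, is not given in the sources used here. RIF1 is a chromatin protein known for replication timing, break repair and gene silencing.

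The spliceosome removes introns in steps. The U1 snRNP marks the 5′ splice site and the U2 snRNP the branch point, each built on a ring of Sm proteins. SF3a and SF3b are the parts of the U2 snRNP that hold it on the branch point. SR proteins mostly promote the use of nearby exons, and hnRNP proteins coat nascent RNA and often block exons. In mouse embryonic stem cells, inhibiting the spliceosome or depleting its core subunits is known to favour a state like the two-cell embryo. Many SR and hnRNP genes also make transcripts with exons that send them to decay. A count over a whole gene, as deposited here, cannot separate these from productive transcripts.

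Rif1 itself stood at 602, 604 and 664 CPM (TMM-scaled counts relative to library size) in Rif1-KO libraries and at 673, 657 and 700.1 CPM in control libraries. The log2 fold change was −0.12 ± 0.05 (SE, adjusted p = 0.0509). It passed under 9 of 17 alternatives, among them limma-voom (adjusted p = 0.0264) and the fits without Rif1-KO replicate 3 (−0.17, adjusted p = 0.00486) or control replicate 2 (−0.14, adjusted p = 0.0343), and was −0.26 (adjusted p = 2.54e-05) with an offset for transcript GC content and length. Every adjusted p here comes from edgeR (quasi-likelihood test, Benjamini-Hochberg over all tested genes) unless another tool is named. A whole-gene count does not show whether exons were lost, so the groups carry their labels. Total counts ran from 9185062 to 10980777 in Rif1-KO libraries and from 8383632 to 9218036 in control libraries. All 15 pluripotency markers looked up were detected and tested, of which 5 rose, 7 fell and 3 did not pass. Over all tested genes 26.1% rose and 24.8% fell. Pou5f1, which encodes the defining factor OCT4, stood at 617 to 676 CPM in Rif1-KO libraries and at 661 to 726 CPM in control libraries, while Sox2, its partner, was lower, at 449 to 487 CPM in Rif1-KO libraries and 647 to 704 CPM in control libraries.

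Splicing factor genes were lower in Rif1-KO libraries far more often than higher. Of the 52 genes, 51 were tested, and each of these had at least 29 counts in every library. The pseudogene Hnrnpa1l2-ps, with at most 2 counts in a library, was not tested. Of the 51, 31 fell (60.8%), 2 rose (3.92%) and 18 did not pass an adjusted p of 0.05. Over all 14250 tested genes 24.8% fell, 26.1% rose and 50.9% passed in either direction. The share of splicing factor genes that passed in either direction, 64.7%, was close to that of the 3100 tested genes with a mean between 73.4 and 396 CPM, the quartiles of the splicing factor genes, where 64.9% passed. Among those 3100 genes 37.1% fell and 27.8% rose. The median log2 fold change was −0.21 over the 51 genes and 0.003 over all tested genes. CPM is relative to library size, so RNA per cell was not measured. In bulk RNA, a smaller share of these genes in each cell and fewer cells with a high share cannot be told apart.

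The changes were small, though not smaller than those of other genes at this level. The median absolute log2 fold change was 0.246 over the 51 genes and 0.247 over all tested genes. It was 0.190 over the 3100 genes between the CPM quartiles of the splicing factor genes. The log2 fold changes ran from −0.67 (Hnrnph3) to 1.17 (Srsf12), and these were the only 2 genes that passed with a fold of at least 1.5, a size that 15.4% of all tested genes reached with an adjusted p under 0.05. Of the 33 genes that passed, 8 had changed by less than 1.2-fold. Tested against a fold of 1.2, a setting chosen after seeing the data, 11 splicing factor genes were lower and 1 was higher, where over all tested genes 22.8% passed, 9.31% lower and 13.5% higher. At 34 genes the 2 groups were fully separated, 31 with Rif1-KO below control and 3 above, where 57.2% of all tested genes did not overlap, 27.8% below and 29.4% above.

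**Figure D1:**
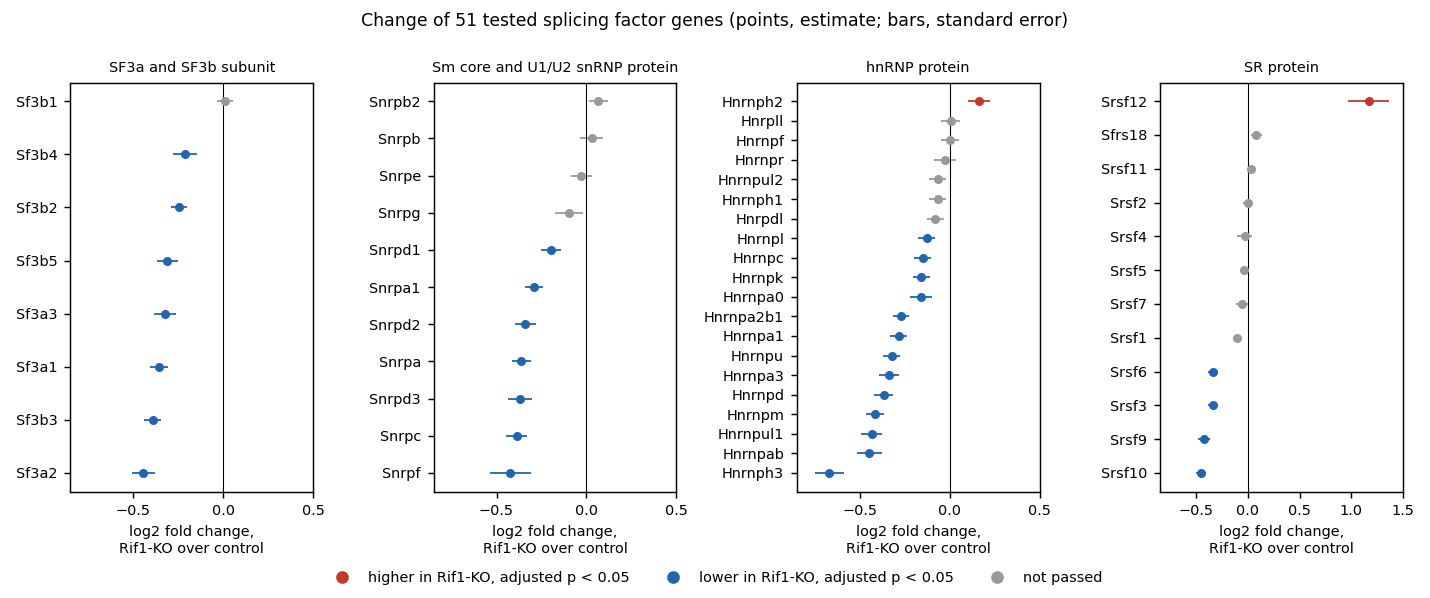
Log2 fold change, Rif1-KO over control, of 51 tested splicing factor genes in 4 classes. Points are the estimate and bars its standard error, blue for lower and red for higher genes with an adjusted p under 0.05. Sf3b1 stands alone at 0.01 among the SF3a and SF3b subunits, and Srsf12 at 1.17 is the only gene far to the right.

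Promoter windows are shown for the SR pair Srsf10 and Srsf12, which moved in opposite directions, and for Hnrnph3, the gene with the largest fall. They run from 250 bases before to 50 after the RefSeq start, 5′ to 3′ on the gene's strand, in build GRCm38.p6, a later build than the mm9 of the counts. Srsf10 is at chr4:135855821-135856120 on the plus strand, Srsf12 at chr4:33209022-33209321 on the plus strand and Hnrnph3 at chr10:63023800-63024099 on the minus strand. Capitals mark the motif letters found by the search described next.
Srsf10: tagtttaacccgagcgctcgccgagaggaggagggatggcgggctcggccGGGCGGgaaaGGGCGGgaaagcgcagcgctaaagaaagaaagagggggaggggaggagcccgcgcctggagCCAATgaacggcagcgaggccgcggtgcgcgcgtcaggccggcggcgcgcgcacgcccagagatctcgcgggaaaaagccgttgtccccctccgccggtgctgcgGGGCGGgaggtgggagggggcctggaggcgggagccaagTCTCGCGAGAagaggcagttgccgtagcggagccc
Srsf12: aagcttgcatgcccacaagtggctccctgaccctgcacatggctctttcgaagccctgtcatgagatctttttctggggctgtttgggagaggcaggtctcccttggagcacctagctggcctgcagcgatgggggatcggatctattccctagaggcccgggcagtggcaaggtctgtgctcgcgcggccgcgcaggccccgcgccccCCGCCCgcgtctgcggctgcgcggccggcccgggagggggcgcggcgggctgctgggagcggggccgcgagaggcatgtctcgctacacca
Hnrnph3: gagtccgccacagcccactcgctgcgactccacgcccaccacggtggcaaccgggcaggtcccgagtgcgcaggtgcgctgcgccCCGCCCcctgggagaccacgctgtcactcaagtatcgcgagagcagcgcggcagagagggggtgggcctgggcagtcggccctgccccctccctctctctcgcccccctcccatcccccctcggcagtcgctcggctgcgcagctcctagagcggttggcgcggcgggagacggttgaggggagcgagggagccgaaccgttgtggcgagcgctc

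RefSeq windows were found for 44 of the 52 genes, 28 of them among the 31 that fell, and 9 motifs were searched on both strands. The CCAAT box (CCAAT) was in 17 of the 31 windows of genes that fell (54.8%), in 10 of the 27 windows of the other tested genes (37.0%) and in 37.4% of the 32851 windows of all genes. The SP/KLF letters GGGCGG were in 18 (58.1%) and 24 (88.9%) of these windows, against 35.7% of all. The ETS letters CCGGAAG were in 8 (25.8%) and 12 (44.4%), against 8.86% of all, and the E-box CACGTG in 5 (16.1%) and 2 (7.41%), against 7.15% of all. Both SP/KLF and ETS letters were thus more frequent than over all genes in windows of either kind of splicing factor gene. The windows of all genes cover 27025 genes, many not tested here, and no share over tested genes alone was computed. Each of the other 5 was in at most 2 windows of either kind, for the YY1 letters AAGATGGC, the CRE letters TGACGTCA, the E2F letters TTTCGCGC, the NRF1 motif and the ZBTB33-like palindrome, which ends the row of capitals in the Srsf10 window. No motif contains another, several windows can belong to 1 gene, and these matches are descriptions of letters and not of binding.

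Of the 8 SF3a and SF3b genes, 7 fell (87.5%) and none rose, with a median log2 fold change of −0.32. Over all tested genes 24.8% fell and 26.1% rose. Between the CPM quartiles of the splicing factor genes, 37.1% of 3100 genes fell and 27.8% rose. Sf3b3, a scaffold subunit of SF3b, had 230.2, 215 and 218 CPM in Rif1-KO libraries and 299.7, 279.7 and 291 CPM in control libraries. The groups lay well apart, and the log2 fold change was −0.39 ± 0.05 (adjusted p = 8.04e-07). Sf3a2, a subunit of SF3a that joins it to the U2 snRNP, had 65.5, 57.5 and 65.4 CPM in Rif1-KO libraries, all below the 81.3, 90.5 and 84.8 CPM of control libraries. The estimate was −0.44 ± 0.06 on the log2 scale (adjusted p = 6.44e-06). All 3 SF3a genes fell, Sf3a1 by 0.36 ± 0.05 and Sf3a3 by 0.32 ± 0.06 on the log2 scale. Of the other SF3b genes, Sf3b2 fell by 0.25 ± 0.05 and Sf3b5, a small subunit, by 0.31 ± 0.06.

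Sf3b1, the largest SF3b subunit, which clasps the branch point helix and is the target of pladienolide-type splicing inhibitors, stood apart from these. It had 581, 572 and 608 CPM in Rif1-KO libraries and 595, 564 and 591 CPM in control libraries, with overlapping groups. The difference was 0.01 ± 0.05 on the log2 scale (adjusted p = 0.889), with an approximate 95% interval from −0.12 to 0.14. When each gene was given an offset fitted to transcript GC content and length, the estimate turned to −0.11 and the adjusted p to 0.0301. Sf3b4 fell by 0.21 ± 0.07 (adjusted p = 0.0117), a call that was lost with the same offset (−0.12, adjusted p = 0.148) and when Rif1-KO replicate 1 was left out (−0.18, adjusted p = 0.0710). Sf3b4 shares 45.3% of its 50-base stretches with transcripts of other annotated genes, so its count is less certain.

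Among the 11 Sm and U1 or U2 snRNP genes, 7 fell (63.6%), none rose and 4 did not pass. Of all tested genes 24.8% fell, and of those between the CPM quartiles of the splicing factor genes 37.1% fell. The median log2 fold change was −0.29. Both U1-specific genes of the class fell. Snrpa, whose protein binds a loop of the U1 RNA, had 127, 126 and 137 CPM in Rif1-KO libraries and 159, 178 and 164 CPM in control libraries, and the groups did not overlap. The log2 fold change was −0.36 ± 0.05 (adjusted p = 9.26e-06), and 20.2% of its stretches are shared with other transcripts, among them an antisense neighbour. Snrpc, whose protein helps U1 recognize the 5′ splice site, had 50.9, 54.9 and 53.2 CPM in Rif1-KO libraries, below the 66.2, 72.05 and 69.8 CPM of control libraries (log2 fold change −0.39 ± 0.06, adjusted p = 1.84e-05).

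Snrpa1 and Snrpb2 encode partners that bind the U2 RNA together. Snrpa1 fell by 0.29 ± 0.05 on the log2 scale (adjusted p = 7.18e-05). Snrpb2 stood at 74.6, 73.9 and 74.5 CPM in Rif1-KO libraries and at 73.1, 69.5 and 70.4 CPM in control libraries, with every Rif1-KO library slightly above every control library, but did not pass (0.07 ± 0.05, adjusted p = 0.316). The difference between the 2 genes was not tested.

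Of the 7 Sm ring genes, Snrpd1, Snrpd2, Snrpd3 and Snrpf fell. Snrpd2 varied little, with 51.6, 51.4 and 51.2 CPM in Rif1-KO libraries against 65.2, 65.2 and 64.7 CPM in control libraries (log2 fold change −0.34 ± 0.06, adjusted p = 4.45e-05). Snrpd3 fell by 0.37 ± 0.07 and Snrpd1 by 0.20 ± 0.06. Snrpf fell by 0.42 ± 0.11, but 89.5% of its stretches are shared with other transcripts, because most of its exons lie opposite another gene. The other 3 ring genes, Snrpb, Snrpe and Snrpg, did not pass. Snrpb, which encodes the SmB subunit of the ring, averaged 126 ± 11.9 CPM in Rif1-KO libraries and 124 ± 8.35 CPM in control libraries (SD, n = 3 each), and its interval ran from −0.15 to 0.20 on the log2 scale.

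**Figure D2:**
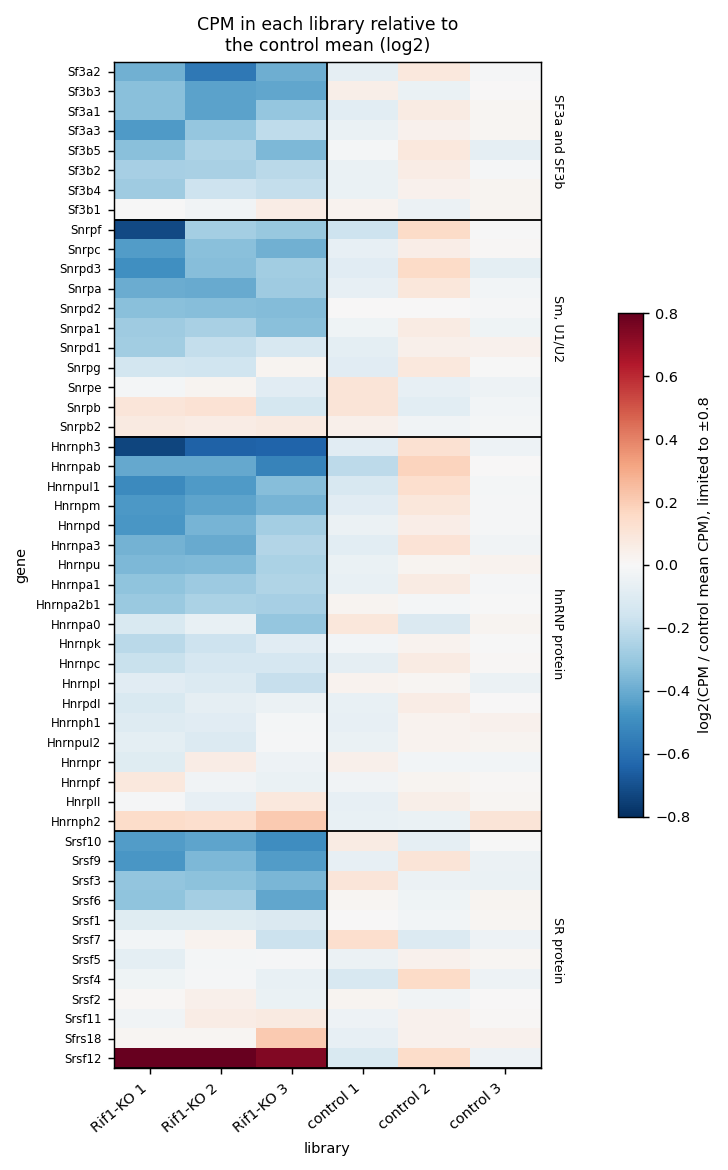
Level of each tested splicing factor gene in each library as log2 of its CPM over the control mean, limited to ±0.8, with Rif1-KO libraries at the left and genes in 4 classes. Blue columns at the left hold most SF3a, SF3b and hnRNP genes, while Sf3b1, Srsf2 and Srsf5 stay near white in all 6 libraries.

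The hnRNP genes make up the largest class, and 13 of the 20 tested fell, 1 rose and 6 did not pass (median log2 fold change −0.16). That is 65% lower, against 24.8% of all tested genes and 37.1% of those between the CPM quartiles of the splicing factor genes. Hnrnph3, of the hnRNP F/H family that binds G-rich RNA, fell most. It had 22.4, 23.8 and 23.95 CPM in Rif1-KO libraries and 35.03, 40.6 and 36.2 CPM in control libraries, with a wide gap between the groups. That is a log2 fold change of −0.67 ± 0.08 (adjusted p = 8.84e-07). Its relatives Hnrnph1 and Hnrnpf did not pass. Hnrnph1 averaged 375 ± 12.3 CPM in Rif1-KO libraries and 393 ± 14.9 CPM in control libraries (log2 fold change −0.07 ± 0.05, adjusted p = 0.239), and Hnrnpf 123 ± 6.17 and 123 ± 2.30 CPM (0.004 ± 0.05, adjusted p = 0.949). Of the stretches of Hnrnpf, 61.9% are shared with other transcripts.

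Hnrnph2, the X-linked member of that family, was 1 of the 2 splicing factor genes that rose. It had 64.1, 63.4 and 66.8 CPM in Rif1-KO libraries and 55.4, 55.8 and 62.2 CPM in control libraries, close but not overlapping. The log2 fold change of 0.16 ± 0.06 (adjusted p = 0.0310) was lost under 8 of 17 alternatives. It was lost with DESeq2 (adjusted p = 0.109) and with the GC and length offset (0.05, adjusted p = 0.492). Leaving out Rif1-KO replicate 1 gave an adjusted p of 0.0603 and replicate 3 one of 0.0804, and leaving out control replicate 1 gave 0.115 and control replicate 2 gave 0.106. The CPM of Hnrnph3 over that of Hnrnph1 was 0.0612, 0.0645 and 0.0616 in Rif1-KO libraries and 0.0932, 0.101 and 0.0900 in control libraries, a ratio chosen after its values were seen.

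Hnrnpul1 and Hnrnpul2 are related genes for large RNA- and chromatin-binding proteins. Hnrnpul1 had 252, 262 and 283 CPM in Rif1-KO libraries, below the 328, 394 and 354 CPM of control libraries (log2 fold change −0.43 ± 0.06, adjusted p = 4.97e-06). Hnrnpul2 had 317, 309.6 and 332 CPM in Rif1-KO libraries and 323, 341 and 340.4 CPM in control libraries, and did not pass (−0.07 ± 0.05, adjusted p = 0.236). Hnrnpd, which encodes the AU-rich element binding protein AUF1, fell by 0.37 ± 0.05, while its relative Hnrpdl (now Hnrnpdl) did not pass (−0.08 ± 0.05, adjusted p = 0.154). The difference between the genes of either pair was not tested. With the GC and length offset, Hnrnpul2 (−0.16, adjusted p = 0.00391), Hnrpdl (−0.14, adjusted p = 0.00906), Hnrnph1 (−0.12, adjusted p = 0.0270) and Hnrnpr (−0.16, adjusted p = 0.0373) passed as lower.

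The most abundant hnRNP genes moved together. Hnrnpu, a nuclear scaffold protein gene, had 1022, 1025 and 1097 CPM in Rif1-KO libraries and 1260.5, 1332 and 1338 CPM in control libraries (log2 fold change −0.32 ± 0.05, adjusted p = 1.19e-05). Hnrnpa2b1 had 978, 1007 and 999 CPM in Rif1-KO libraries, against 1215, 1188 and 1194 CPM in control libraries (−0.27 ± 0.04, adjusted p = 3.54e-05). For both genes the groups were clearly separated, and together with Hnrnpab they made up the largest parts of the drop in summed CPM of all splicing factor genes, 13.7% for Hnrnpu, 10.7% for Hnrnpa2b1 and 7.83% for Hnrnpab. Hnrnpab itself was uneven among control libraries, at 422, 422 and 387 CPM in Rif1-KO libraries and at 484, 634 and 562 CPM in control libraries (−0.45 ± 0.07, adjusted p = 1.94e-05). Its count is less certain, since 23.8% of its stretches are shared with other transcripts and 29.1% of its exon bases lie opposite Phykpl.

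The A/B type genes Hnrnpa1, a classical repressor of exons, and Hnrnpa3 fell by 0.28 ± 0.05 and 0.34 ± 0.06 on the log2 scale, though 28.2% and 27.1% of their stretches are shared with transcripts of other annotated genes. Hnrnpm, which binds GU-rich RNA, fell by 0.42 ± 0.05, though 14.7% of its exon bases overlap March2 on the same strand. Smaller changes passed for Hnrnpk (−0.16), Hnrnpc (−0.15), Hnrnpl (−0.13) and Hnrnpa0 (−0.16), and each was lost when some single library was left out. Without Rif1-KO replicate 1 the adjusted p was 0.0716 for Hnrnpk and 0.0628 for Hnrnpc. Hnrnpl was lost without Rif1-KO replicate 3 (adjusted p = 0.0773), control replicate 1 (0.0576) or control replicate 2 (0.0513), and Hnrnpa0, whose groups overlapped, without Rif1-KO replicate 3 (0.182), control replicate 1 (0.139) or control replicate 3 (0.107). Without TMM scaling, the adjusted p was 0.0512 for Hnrnpl and 0.0697 for Hnrnpa0. Hnrnpl was also lost with the GC and length offset (−0.098, adjusted p = 0.0562), and Hnrnpa0 with a stricter filter on low counts (adjusted p = 0.0549). Hnrpll (now Hnrnpll), known for CD45 splicing in T cells, averaged 101 CPM in both groups.

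**Figure D3:**
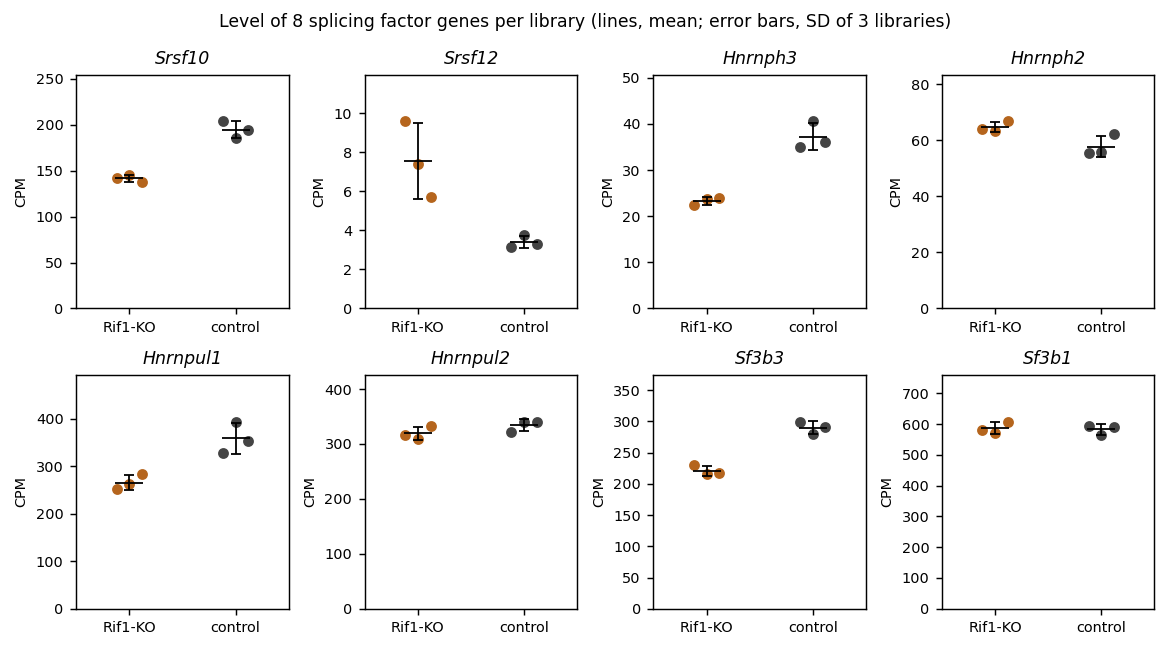
CPM of 8 splicing factor genes in each library (points), with the mean and SD of 3 libraries, Rif1-KO at the left of each panel and control at the right. Srsf10, Hnrnph3, Hnrnpul1 and Sf3b3 lie lower in Rif1-KO libraries, Srsf12 and Hnrnph2 lie higher, and Hnrnpul2 and Sf3b1 overlap between the groups.

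The SR genes were the class with the fewest calls. Of 12, 4 fell (33.3%), 1 rose and 7 did not pass, with a median log2 fold change of −0.04. The 41.7% that passed was below the 50.9% of all tested genes, of which 24.8% fell. Of the 3100 genes between the CPM quartiles of the splicing factor genes, 37.1% fell. Srsf10, whose protein represses splicing when it loses its phosphates, had 143, 145 and 138 CPM in Rif1-KO libraries and 204, 185 and 194 CPM in control libraries, with no overlap (log2 fold change −0.46 ± 0.05, adjusted p = 1.84e-07). Srsf9, a short SR protein gene, fell by 0.42 ± 0.06. Srsf3, the smallest SR protein, had 211, 209.7 and 204 CPM in Rif1-KO libraries, below the 281, 254 and 254 CPM of control libraries (−0.34 ± 0.05, adjusted p = 9.02e-06). Srsf6 fell by 0.33 ± 0.05.

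Srsf12, a paralog of Srsf10 whose human protein antagonizes other SR proteins in splicing assays, had the only large rise. It had 9.58, 7.37 and 5.69 CPM in Rif1-KO libraries and 3.14, 3.77 and 3.32 CPM in control libraries, from 106, 73 and 52 counts and from 29, 31 and 30 counts. The Rif1-KO libraries were all higher but spread widely. The log2 fold change was 1.17 ± 0.20 (adjusted p = 6.5e-05), and over 17 alternatives the adjusted p ran from 8.36e-10 to 0.000752. Srsf12 stayed the lowest of the 51 tested genes per length, at 2.40 CPM per kilobase of exon in Rif1-KO libraries and 1.08 in control libraries, where Srsf10 stood at 20.3 and 27.8. The CPM of Srsf10 over that of Srsf12 was 14.9, 19.7 and 24.2 in Rif1-KO libraries and 65.0, 49.2 and 58.5 in control libraries, again chosen after the values were seen.

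The other SR genes did not pass. Srsf1, the founding SR protein gene, had 563, 563 and 554 CPM in Rif1-KO libraries and 603, 592 and 609 CPM in control libraries, which do not overlap. Its log2 fold change of −0.10 ± 0.04 missed the threshold (adjusted p = 0.0531) but passed under 8 of 17 alternatives, with limma-voom (adjusted p = 0.0246) and DESeq2 (adjusted p = 0.0427) among them. Srsf2 stood at 462, 471 and 443 CPM in Rif1-KO libraries and at 467, 449.8 and 460.4 CPM in control libraries, with an interval from −0.12 to 0.12, though 20.7% of its stretches are shared with other transcripts. Srsf5 averaged 572 ± 15.7 CPM in Rif1-KO libraries and 586 ± 16.7 CPM in control libraries (SD, n = 3 each), with an interval from −0.16 to 0.09. Srsf4, Srsf7 and Srsf11 did not pass either, with log2 fold changes of −0.03, −0.05 and 0.03, nor did Sfrs18 (now Pnisr), an arginine- and serine-rich protein gene outside the classical family (0.08 ± 0.05, adjusted p = 0.202). The count of Srsf4 is less certain, since 39.5% of its stretches are shared with other transcripts and 43.0% of its exon bases lie opposite Gm12992.

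Summed over each class, every Rif1-KO library was below every control library. The 8 SF3a and SF3b genes summed to 1539 ± 35.5 CPM in Rif1-KO libraries and 1772 ± 12.4 CPM in control libraries (SD, n = 3 each), a ratio of 0.868. The ratio was 0.864 for the Sm and snRNP genes, 0.847 for the hnRNP genes and 0.938 for the SR genes. All 52 genes summed to 13038 ± 177 CPM in Rif1-KO libraries and 14952 ± 298 CPM in control libraries, a ratio of 0.872. As a share of total counts, without any scaling, they took 1.30%, 1.31% and 1.32% of Rif1-KO libraries and 1.47%, 1.5% and 1.48% of control libraries. No test was run on these sums, because the genes were chosen with results known.

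**Figure D4:**
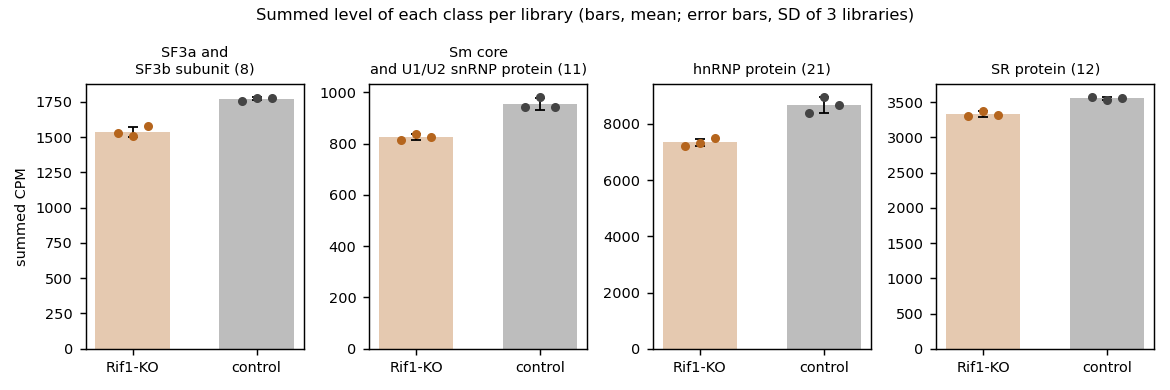
Summed CPM of each class of splicing factor genes per library (points), with the mean (bars) and SD (error bars) of 3 libraries, Rif1-KO at the left and control at the right, axes from 0. The SR genes show the smallest difference, 3333 against 3555 CPM.

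Other genes of the splicing machinery, in 9 lists taken from textbook knowledge, also fell more often than they rose. Of 186 tested genes outside the 52, 93 fell (50%), 18 rose (9.68%) and 75 did not pass, with a median log2 fold change of −0.14. Over all tested genes 24.8% fell and 26.1% rose, which is the background for each list below. Among the 3100 genes between the CPM quartiles of the splicing factor genes, 37.1% fell and 27.8% rose. The tri-snRNP and catalytic-step list, whose proteins surround the active site and drive its remodelling, had 27 of 43 lower and 1 higher. Ctnnbl1 fell by 0.66 ± 0.06, the U5 GTPase gene Eftud2 by 0.46 ± 0.04 and Nhp2l1 (now Snu13), which binds U4 RNA, by 0.55 ± 0.07, while Cwc22, which loads the exon junction complex, rose by 0.45 ± 0.07 on the log2 scale. Among other U1 and U2AF factors, 10 of 22 fell and 2 rose. U2af2, which reads the polypyrimidine tract, fell by 0.35 ± 0.04, U2af1l4 by 0.58 ± 0.12 and Cherp by 0.31 ± 0.06, and Tia1 and Prpf39 rose by 0.31 ± 0.05 and 0.27 ± 0.06.

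Of 12 Lsm genes, whose proteins ring the U6 RNA or act in mRNA decay, 7 fell, with Lsm4 at −0.56 ± 0.06, Lsm12 at −0.47 ± 0.06 and Lsm2 at −0.36 ± 0.06, and only Lsm11, a U7 histone RNA factor, rose (0.28 ± 0.09). Of 18 genes for Sm ring assembly and arginine methylation, 10 fell and none rose. The methyltransferase genes Prmt1, Prmt7 and Prmt5, the last of which modifies Sm proteins, fell by 0.47 ± 0.05, 0.45 ± 0.05 and 0.40 ± 0.05 on the log2 scale. Of 19 SR-related genes 10 fell, led by Tra2b (−0.40 ± 0.06), Rnps1 (−0.45 ± 0.07) and Acin1 (−0.26 ± 0.05). The neural splicing activator gene Srrm4 alone rose, to 32.0 ± 2.98 CPM in Rif1-KO libraries, against 16.4 ± 1.01 CPM in control libraries (SD, n = 3 each; adjusted p = 5.45e-08).

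The kinase list went the other way. Of 8 tested kinases that phosphorylate SR proteins or other splicing factors, 4 rose and 2 fell, with a median log2 fold change of 0.08. The Cdc2-like kinase genes Clk1, Clk3 and Clk4 rose by 0.31 ± 0.04, 0.33 ± 0.06 and 0.32 ± 0.06, and Dyrk1a by 0.13 (adjusted p = 0.0462), while Clk2 and Srpk1 fell by 0.19 ± 0.06 and 0.14 ± 0.05. Clk1 stood at 266 ± 1.63 CPM in Rif1-KO libraries and at 215 ± 0.439 CPM in control libraries. The next 2 lists had fewer calls, where over all tested genes 24.8% fell and 26.1% rose. Of 8 minor spliceosome genes, 2 fell, Snrnp48 (−0.17 ± 0.05) and Pdcd7 (−0.21 ± 0.08), and 1 rose, Rnpc3 (0.46 ± 0.06). Of 15 genes of the exon junction complex and nonsense-mediated decay, 5 fell and 2 rose. Rbm8a, Eif4a3 and 1500002O20Rik (now Smg9) fell by 0.43 ± 0.05, 0.30 ± 0.05 and 0.40 ± 0.09, and the decay genes Smg5 and Smg1 rose by 0.35 ± 0.05 and 0.21 ± 0.05.

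Among the 9 lists of other splicing genes, the alternative splicing regulators held the 2 largest rises, Celf2 and Mbnl2. Of 42 tested, 20 fell, 6 rose and 16 did not pass. Celf2, a regulator of muscle and brain exons, rose to 30.1 ± 1.99 CPM in Rif1-KO libraries, against 10.3 ± 0.952 CPM in control libraries (log2 fold change 1.54 ± 0.10, adjusted p = 1.85e-10). Mbnl2, of the muscleblind family of developmental splicing regulators, rose to 220 ± 7.02 CPM, against 111 ± 5.13 CPM (0.99 ± 0.05, adjusted p = 3.25e-12). Rod1 (now Ptbp3) rose by 0.20 ± 0.04. Raver1, a partner of the polypyrimidine tract protein, fell (−0.56 ± 0.05), as did Rbm10 (−0.62 ± 0.06) and the paraspeckle gene Pspc1 (−0.496 ± 0.05).

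**Figure D5:**
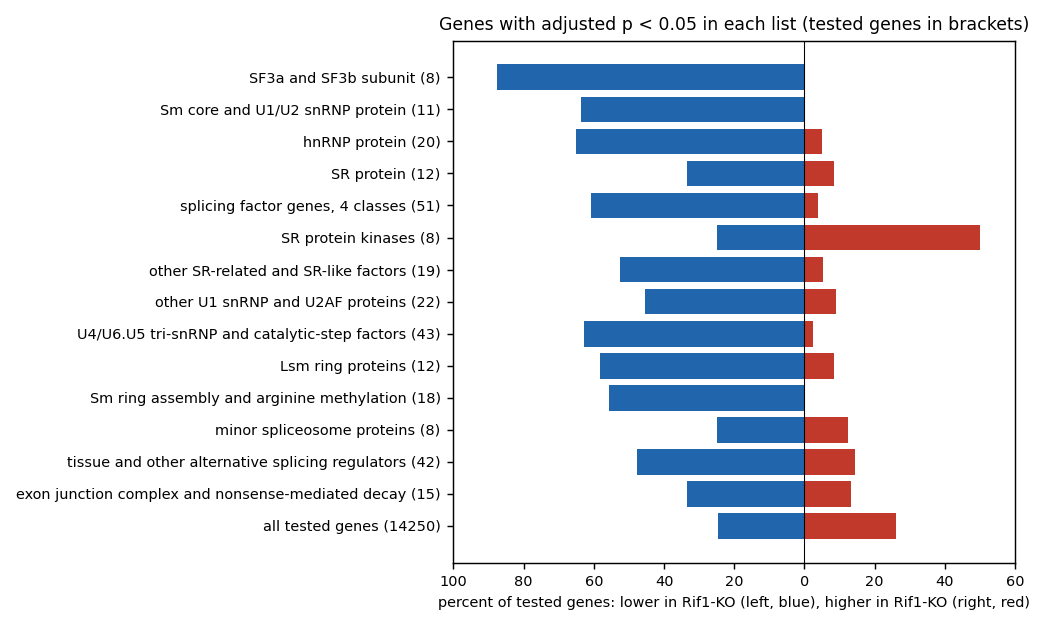
Percent of tested genes with an adjusted p under 0.05 that were lower (blue, left) or higher (red, right) in Rif1-KO libraries, for 4 classes of splicing factor genes, their total, 9 lists of other splicing genes and all tested genes, with the tested number in brackets. All tested genes divide almost evenly (24.8% and 26.1%). The SF3a and SF3b class, the Sm and snRNP class and the Sm ring assembly list lie wholly to the left.

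Many markers of other cell states differed between the groups, and their part in the changes of splicing factor genes was not tested. Over all tested genes 26.1% rose and 24.8% fell, the background for each marker list below. Of 27 two-cell-like markers in the table, 15 were tested, 12 rose and none fell, and 4 had no count in any library. Their summed level ran from 299.9 to 306.4 CPM in Rif1-KO libraries and from 216 to 227 CPM in control libraries, of which Eif1a took 193 to 207 and 183 to 184 CPM. Zscan4c stood at 4.34, 4.44 and 4.70 CPM in Rif1-KO libraries and at 0, 0 and 0.111 CPM in control libraries, and Dux at 0.633, 1.01 and 0.328 CPM in Rif1-KO libraries with no control count. Most of these markers passed the filter on low counts only through their Rif1-KO counts. Of 8 tested primitive endoderm markers 6 rose and none fell (summed 953 to 985 CPM in Rif1-KO libraries and 686 to 698 CPM in control libraries). Of these sums Sparc took 508 to 526 CPM in Rif1-KO libraries and 262 to 281 CPM in control libraries. Lama1, at 344 to 364 and 337 to 358 CPM, did not pass, and the defining Gata6 stood at 2.53 to 3.39 and at 1.46 to 1.66 CPM. Of 5 tested trophectoderm markers 3 rose and 1 fell (summed 323 to 332 and 223 to 229 CPM), and the defining Cdx2 had no count in any library. The 15 pluripotency markers summed to 6589 to 6773 CPM in Rif1-KO libraries and 6494 to 6686 CPM in control libraries. Of 6 neuroectoderm markers 4 rose and 2 fell (188 to 189 and 143 to 166 CPM), of 4 mesoderm markers 3 rose and 1 fell (13.6 to 14.7 and 12.2 to 15.7 CPM), and of 6 fibroblast markers 2 rose and 2 fell (4858 to 5345 and 4376 to 4637 CPM, mostly Fn1).

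Base composition moved with the changes to a small degree. Over the 51 tested genes the log2 fold change and the GC content of transcripts had a Spearman rho of −0.20, against −0.14 over 13936 tested genes with a value. The points share all 6 libraries, so this is a description. Median GC content was 47.2% for the splicing factor genes that fell and 47.2% for all 51, and 51.02% over all tested genes. With the GC and length offset 35 of the 51 were lower and 1 was higher. The median log2 fold change over all genes fitted with this offset was −0.001. The share of all genes that passed with it is not given here, so the count of 35 has no background beside it.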

How the data were processed

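RNA-seq was analysed for 6 libraries, 3 labelled Rif1-KO and 3 labelled control. The authors deposited raw, unnormalized counts per gene symbol for each library. The tools named are STAR and featureCounts 1.6.2, and the build mm9, per the submitters' processing notes. No source used here gives the annotation, the strand setting or the handling of multi-mapped reads, so counts of genes with near-identical copies or antisense neighbours are uncertain.

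From these counts, edgeR 4.0.16 in R 4.3.3 (TMM, filterByExpr, quasi-likelihood test, group as the only term) was fitted to all genes, with Benjamini-Hochberg adjustment over 14250 tested genes and a threshold of 0.05. Errors of log2 fold changes are SE, errors of CPM are SD over 3 libraries, and approximate 95% intervals use the SE with 4 degrees of freedom. The fit was tested on simulated data with known changes. Alternatives used DESeq2 1.42.0, limma 3.58.1 (voom), and mgcv 1.9.3 for the offset. Names, transcript GC content, exon length and shared stretches of 50 bases came from GENCODE M21 (GRCm38), where all 52 genes matched. Promoters came from RefSeq (GRCm38.p6).

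The genes, lists and tests were chosen with earlier results of these data known. Named genes were the passing members of each class in order of adjusted p (up to 6 each way), up to 3 that did not pass in order of mean CPM, and from each list up to 3 each way. Some further members and genes are named to account for all. Nothing in the labels says whether replicates were grown separately, and p-values then measure the spread among these libraries alone, which may be technical. No 2 libraries of a group were identical (chi-square per degree of freedom 1.27 to 4.22), which does not show that they were prepared separately. The lowest value, 1.27, was for Rif1-KO libraries 1 and 2, which lay close together and differed from library 3 at 3.06 and 3.21.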

Additional observations from a re-analysis of the deposited data

How the results depend on the processing

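Over 17 alternatives, 16 of them planned, more splicing factor genes were lower than higher in each. The number lower, 31, ran from 28 to 32 under other scalings, filters and tools and without single libraries, and was 35 with the GC and length offset and 36 with the offset and a replicate block. The number higher, 2, was 1 with DESeq2, 1 with the offset, 1 with the offset and block, and ran from 1 to 2 without single libraries, where it lost Hnrnph2. Against a fold of 1.2, chosen after seeing the data, it was 1 higher and 11 lower, with 6 and 28 of the other splicing genes and 1922 and 1326 of all tested genes. Of the 33 genes called, 27 passed in the same direction under all 16 alternatives without a fold minimum, and 12 under all 17. Sf3b1 turned from 0.01 to −0.11 with the offset (adjusted p = 0.0301) and to −0.11 with the offset and block (adjusted p = 0.0251), and the cause was not tested. Same-numbered libraries did not deviate together (correlations 0.08, −0.06 and 0.05), and not every library correlated best with its own number. No pairing by number was seen, which does not show that same-numbered libraries were prepared apart. The replicate block gave 32 lower and 2 higher. Depth limited Srsf12 most, with 29 to 106 counts a library and an SE of 0.20.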
